A study of Mus musculus with 20 samples.

Results

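Transcripts of 8 secreted growth and angiogenic factors were followed in sorted spinal cord microglia before and after injury: the platelet-derived growth factor chains Pdgfa and Pdgfb, the vascular growth factor Vegfa, the EGF receptor ligand Hbegf, the cytokine Osm, the hepatocyte growth factor Hgf, the neurotrophin Bdnf and the stress-associated factor Gdf15. The members were chosen by their gene symbols, and 8 of 8 were found among the 16810 genes of the table. The animals were adult male CX3CR1+/eGFP mice on a C57BL/6 background, in which 1 copy of the fractalkine receptor gene Cx3cr1 is replaced by enhanced green fluorescent protein (eGFP), and every group, the controls included, carried this genotype. RNA was taken from non-injured mice (NI, 3 libraries) and from mice with a lateral hemisection (HS) or a full transection (FT) of the thoracic cord at 72 h (3 libraries for each lesion), 1 week (2 libraries for HS and 3 for FT) and 2 weeks (3 libraries for each lesion), 20 libraries in 7 groups. Cells with high eGFP were sorted from a short segment around the lesion, or from the matching thoracic segment in NI mice. Blood monocytes carry eGFP too, so the gate could also hold infiltrating cells. The study used more mice than libraries and called the libraries biological replicates. How mice were divided among libraries was not given in the sources used here, so the p-values measure the spread between these libraries.

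Secreted growth factors act on receptors of neighbouring cells. PDGF chains form dimers that bind the receptors Pdgfra and Pdgfrb on oligodendrocyte precursors, pericytes and fibroblasts, and VEGF-A acts on the endothelial receptors Flt1 and Kdr with the co-receptors Nrp1 and Nrp2. HB-EGF is made as a membrane protein and released by ADAM proteases, oncostatin M signals through the shared subunit Il6st with Osmr or Lifr, HGF binds Met, BDNF binds Ntrk2, and GDF15 is a product of cells under stress whose receptor is Gfral.

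After injury, Pdgfb fell at 72 h after both lesions to 0.42-fold (HS) and 0.46-fold (FT) of NI. It was back near NI at 2 weeks. Pdgfa was 2.11-fold higher than NI at 2 weeks after FT, a call that some alternative fits did not give. After HS it was 1.68-fold, which did not pass the test, and the lesions were not shown to differ. Hbegf was lower than NI 1 week after FT, a call that several alternative fits did not give. By limma, Vegfa, Osm, Hgf, Bdnf and Gdf15 did not pass the test against NI at any time after either lesion. Tests on the recovered reads (edgeR's quasi-likelihood and likelihood ratio tests and DESeq2) called Hgf at FT 72 h, and some of them Gdf15 at FT 1 week and Osm at FT 2 weeks. Transcript levels are given as CPM, the read count of a gene scaled to a common library size, in which 1 read was worth 0.0330 to 0.292 CPM depending on the library (3872918 to 34099232 reads on the genes of the table). A gene was called differentially expressed (DE) where the limma fit gave a Benjamini-Hochberg adjusted p under 0.05 over all 16810 genes and the level changed 2-fold or more. Changes are on the log2(CPM + 0.5) scale with their standard error (SE).

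Among the members, Pdgfb and Osm had the most transcript per length in NI libraries, at 31.4 and 11.5 CPM per kilobase of exon. Pdgfa and Hbegf followed with 4.14 and 3.39 CPM per kilobase. Vegfa (0.582), Hgf (0.382), Gdf15 (0.213) and Bdnf (0.186) were all under 1 CPM per kilobase in NI. These last members rested on few reads: in the 20 libraries Gdf15 had from 1 to 64 reads, Bdnf from 1 to 47, Vegfa from 5 to 74 and Hgf from 13 to 222.

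**Figure D1:**
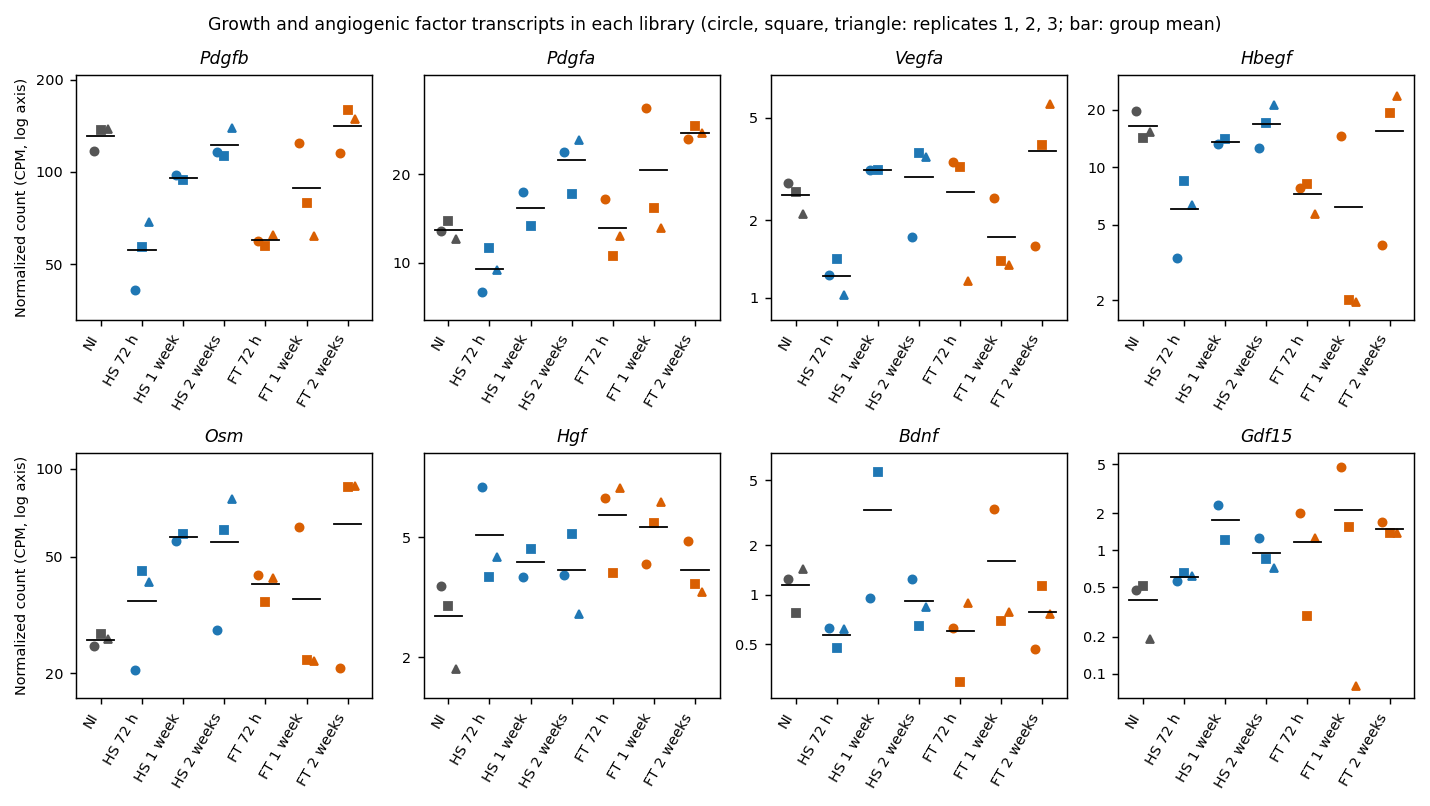
Normalized count in CPM (vertical log axis) of each of the 8 members in every library, by group (horizontal axis). Circles, squares and triangles are replicates 1, 2 and 3 and the bar is the group mean. Pdgfb in both 72 h groups lies below all NI libraries, and Hbegf and Osm split within the FT 1 week and FT 2 weeks groups.

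Pdgfb (mm10 chr15:79995874-80014977, minus strand) encodes the PDGF-B chain, the form that recruits pericytes to vessels. Its level was 117, 137 and 138 CPM in the NI libraries. At 72 h it was 41.2, 57.1 and 68.5 CPM after HS and 59.7, 57.5 and 62.5 CPM after FT. All 6 libraries at 72 h lay below all 3 NI libraries, and the HS and FT values overlapped. The change from NI was -1.25 (SE 0.22, limma adjusted p = 0.000197) after HS and -1.12 (SE 0.22, limma adjusted p = 0.000683) after FT. At 1 week Pdgfb was 97.9 and 93.9 CPM after HS and 124, 79.2 and 61.7 CPM after FT. The HS libraries were still below all NI libraries, whereas 1 of the FT libraries reached the NI range, and neither change passed the test (-0.44, adjusted p = 0.489, and -0.62, adjusted p = 0.0991). At 2 weeks the values were 116, 113 and 139 CPM after HS and 115, 160 and 149 CPM after FT, a range that overlapped with NI. From 72 h to 2 weeks Pdgfb rose by 1.16 after HS (SE 0.22, adjusted p = 0.00137) and by 1.22 after FT (SE 0.22, adjusted p = 0.00101). Leaving out the lowest library, HS 72 h replicate 1, took the HS rise to 0.96 (adjusted p = 0.0184), under the 2-fold limit. The fall at 72 h was DE under every alternative run. In bulk RNA, fewer cells with the transcript and less transcript per cell cannot be told apart.

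Marker transcripts of other cells and states also moved at 72 h. The summed level of 8 monocyte and macrophage markers was 77.3 to 83.3 CPM in NI, 708 to 855 CPM at HS 72 h and 636 to 1507 CPM at FT 72 h, with 4 and 7 of the 8 higher by the DE test and none at 0. The 5 proliferation genes summed to 29.9 to 33.8 CPM in NI, 532 to 845 CPM at HS 72 h and 520 to 643 CPM at FT 72 h, and 5 of 5 were higher in each. The 8 microglia markers summed to between 15206 and 32339 CPM over all 20 libraries, but single markers moved at 72 h. Tmem119 was lower by the DE test after both lesions. Under the 2-fold limit, Sall1 was lower (-0.71 after HS and -0.72 after FT, limma adjusted p = 0.00161 and 0.00169). Olfml3 was higher (0.89 and 0.94, limma adjusted p = 0.0169 and 0.0131). P2ry12 lay below NI without passing the test (-0.78 and -0.90, limma adjusted p = 0.0954 and 0.0599). Fn1 rose from a mean of 12.9 CPM in NI to 546 and 597 CPM at 72 h and made up most of the monocyte and macrophage sum there. Ccr2, the receptor that brings monocytes into tissue, rose from 17.99 to 72.0 and 97.1 CPM. The monocyte markers Ly6c2 and Plac8 were not DE at HS 72 h (1.37-fold, limma adjusted p = 0.514, and 1.21-fold, limma adjusted p = 0.703). Both were DE at FT 72 h (3.28-fold and 3.09-fold). The summed level of 11 immediate-early genes, the transcripts such as Fos, Jun and Egr1 that cells make within minutes of a stimulus, was lower in all 6 libraries at 72 h (3310 to 4555 CPM after HS and 3373 to 3981 CPM after FT) than in NI (5361 to 8890 CPM). Single genes of the list differed. Jun was DE at 72 h after both lesions (-2.26 each), and Fos and Egr1 lay below NI without being DE. Ier2 overlapped with NI, and Nr4a1 changed by 0.45 after HS and 0.54 after FT without being DE. Within HS 72 h, HS 1 week, FT 1 week and FT 2 weeks the libraries with the lower sums were also those with less Pdgfb. Within NI, FT 72 h and HS 2 weeks the 2 orders differed. At HS 2 weeks, replicate 1 had a sum of 2072 CPM and 116 CPM of Pdgfb, and replicate 2 had 9915 and 113 CPM. FT 2 weeks replicate 1, with a sum of 1087 CPM, held 115 CPM of Pdgfb, close to the lowest NI library. The part of these transcripts, and of the cells that carry them, in the Pdgfb fall was not tested.

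Pdgfa (mm10 chr5:138976014-138997370, minus strand) encodes the PDGF-A chain, a mitogen of oligodendrocyte precursors. Its level was 12.8, 13.9 and 11.99 CPM in NI, 7.96, 11.2 and 9.43 CPM at HS 72 h and 16.5, 10.5 and 12.3 CPM at FT 72 h. The HS 72 h libraries lay below NI without passing the test (-0.43, adjusted p = 0.245), and the FT 72 h libraries spanned the NI values. At 1 week the libraries held 17.4 and 13.4 CPM after HS and 33.6, 15.4 and 13.1 CPM after FT, and FT replicate 1 stood above its group. At 2 weeks they held 23.9, 17.1 and 26.1 CPM after HS and 26.3, 29.2 and 27.6 CPM after FT. All 6 libraries at 2 weeks were above all NI libraries. The change from NI was 1.07 after FT (SE 0.27, limma adjusted p = 0.0130), which is DE, and 0.75 after HS (SE 0.27, adjusted p = 0.133), which is not. The direct difference between FT and HS at 2 weeks was 0.32 (95% confidence interval -0.24 to 0.89, adjusted p = 1.00 to 2 decimals), so the lesions were not shown to differ. From 72 h to 2 weeks Pdgfa rose by 1.18 after HS (adjusted p = 0.00700) and by 1.08 after FT (adjusted p = 0.0185). Scaling all libraries to 1 common total took the FT change from NI to 0.69 (adjusted p = 0.117), and leaving out NI replicate 3 took its adjusted p to 0.0561. The HS rise over time was not DE without HS 72 h replicate 1 (1.06, adjusted p = 0.05004), and the FT rise was not DE without FT 72 h replicate 2 (0.94, adjusted p = 0.0907), FT 72 h replicate 3 (1.04, adjusted p = 0.0578), FT 2 weeks replicate 2 (1.04, adjusted p = 0.0663) or FT 2 weeks replicate 3 (1.08, adjusted p = 0.0619).

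**Figure D2:**
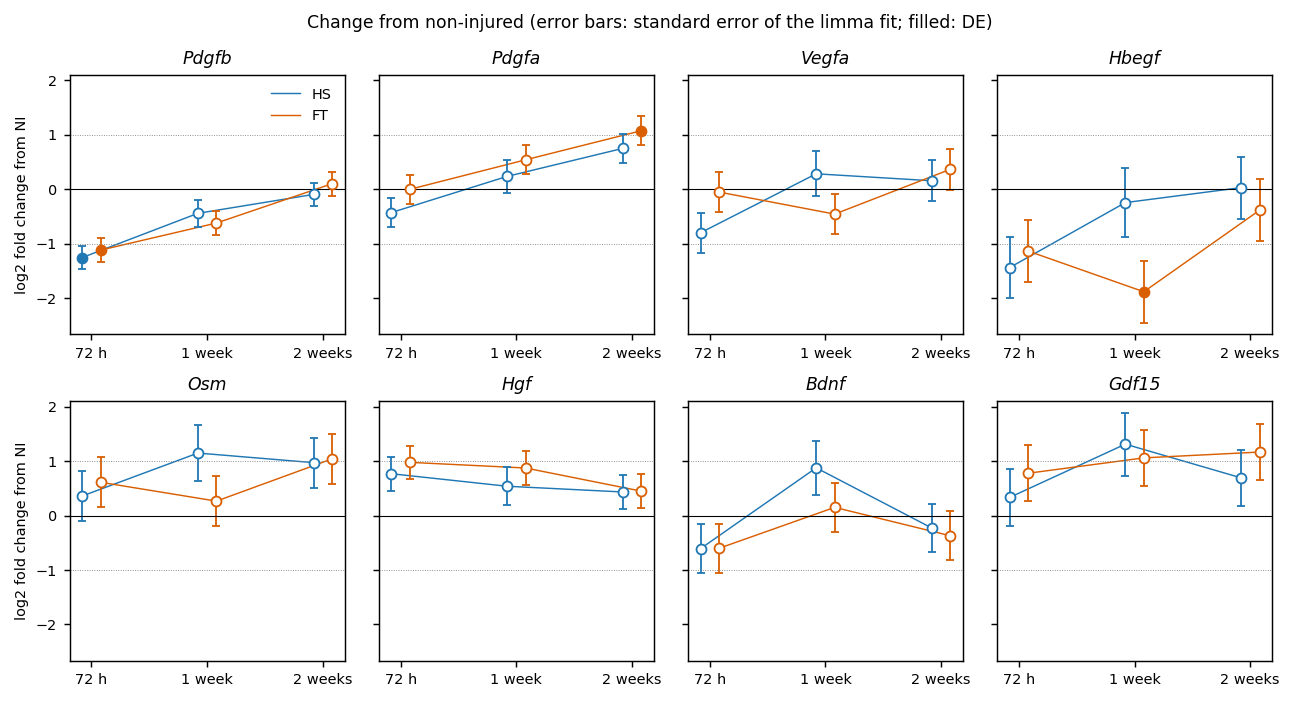
Fitted log2 fold change from NI (vertical axis) of each member at 72 h, 1 week and 2 weeks (horizontal axis) after HS and FT. Error bars are the standard error of the limma fit, filled points are DE and dotted lines mark a 2-fold change. Pdgfb starts at -1.25 and -1.12 and returns to near 0 at 2 weeks, and Pdgfa climbs to 0.75 and 1.07.

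Both RefSeq start windows of Pdgfa are shown because Pdgfa is the member that was higher than NI, and both of Vegfa because it is the classical hypoxia target among the members. Each window runs from 250 bases before to 50 bases after an annotated start, on the gene's strand (GRCm38.p6), and capitals mark motif matches. The RefSeq windows used here were from 5 of the 8 members, 15 windows in all. Windows of Pdgfb, Hbegf and Osm were not among them, which does not show that these genes have none.
Pdgfa, chr5:138994232-138994531, minus strand: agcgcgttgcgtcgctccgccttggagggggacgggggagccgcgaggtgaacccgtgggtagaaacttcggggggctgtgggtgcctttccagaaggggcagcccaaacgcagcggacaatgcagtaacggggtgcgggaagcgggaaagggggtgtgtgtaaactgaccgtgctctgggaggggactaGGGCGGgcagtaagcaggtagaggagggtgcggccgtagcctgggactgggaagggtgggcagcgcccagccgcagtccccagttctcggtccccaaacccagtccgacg
Pdgfa, chr5:138994895-138995194, minus strand: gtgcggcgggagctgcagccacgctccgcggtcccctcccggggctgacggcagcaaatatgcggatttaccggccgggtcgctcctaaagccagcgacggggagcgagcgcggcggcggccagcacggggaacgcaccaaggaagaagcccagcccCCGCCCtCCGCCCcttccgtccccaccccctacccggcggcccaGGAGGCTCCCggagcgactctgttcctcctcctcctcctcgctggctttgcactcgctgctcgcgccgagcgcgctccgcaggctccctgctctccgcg
Vegfa, chr17:46032328-46032627, minus strand: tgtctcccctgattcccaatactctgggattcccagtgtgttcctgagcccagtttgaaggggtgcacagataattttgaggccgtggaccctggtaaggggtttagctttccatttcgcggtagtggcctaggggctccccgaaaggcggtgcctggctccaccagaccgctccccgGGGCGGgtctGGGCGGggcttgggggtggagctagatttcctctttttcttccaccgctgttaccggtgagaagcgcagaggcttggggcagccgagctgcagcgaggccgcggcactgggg
Vegfa, chr17:46025114-46025413, minus strand: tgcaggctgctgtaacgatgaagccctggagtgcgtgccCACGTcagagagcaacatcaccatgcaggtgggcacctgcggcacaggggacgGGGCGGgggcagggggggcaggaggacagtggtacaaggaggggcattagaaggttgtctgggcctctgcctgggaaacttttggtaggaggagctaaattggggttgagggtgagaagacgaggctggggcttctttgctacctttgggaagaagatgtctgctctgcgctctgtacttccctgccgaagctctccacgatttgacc
The Pdgfa starts are 663 bases apart, and both lie within the gene span given for Pdgfa above. The first window holds 1 Sp1 GC box (GGGCGG, on either strand), and the second holds 2 GC boxes and 1 NF-kB motif (on either strand). The first Vegfa window holds 2 GC boxes. The second, whose start lies within the gene, holds 1 GC box and 1 hypoxia response core (ACGTG, on either strand) at position -211 from that start. Of all 32851 RefSeq windows, 35.7% hold a GC box, 20.7% an NF-kB motif and 19.6% a hypoxia response core. The other motifs searched on both strands had no match in these 4 windows: AP-1 TGANTCA (7.81%), the cAMP response element TGACGTCA (1.79%), the ATF4 composite element TGATGNAAN (3.95%) and the TATA box TATAAA (13.6%). The GC box and the TATA box were added after the other motifs had been searched. A match is a run of letters and not a shown binding site.

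The other genes of the PDGF system gave no DE call by limma in any comparison with NI (0 of 5: Pdgfc, Pdgfd, Pdgfra, Pdgfrb and Pdgfrl), with 0 or 1 gene at an unadjusted p under 0.05 in each. DESeq2 called none, and edgeR's quasi-likelihood and likelihood ratio tests each called Pdgfd, a gene of 0.28 ± 0.02 CPM at FT 2 weeks against 1.34 ± 0.91 CPM in NI, the latter test also at HS 72 h. Pdgfra was 3.24 ± 0.55 CPM in NI (SD, n = 3) and 1.93 to 2.88 CPM in the group means after injury, and Pdgfrb was 2.07 ± 0.61 CPM in NI and 1.58 to 2.26 CPM after injury. In CPM, which is not scaled by gene length, the group means of both receptors were below those of Pdgfa and Pdgfb. Cspg4, a proteoglycan that oligodendrocyte precursors and pericytes carry, rose from 2.88 CPM in NI to 49.3 CPM at HS 2 weeks and 51.6 CPM at FT 2 weeks, whereas Gpr17, another precursor marker, was 1.58 CPM in NI and 2.04 and 2.69 CPM at 2 weeks. These are group means. The summed level of 3 precursor markers was 94.2, 29.1 and 38.4 CPM at HS 2 weeks and 84.8, 36.4 and 48.4 CPM at FT 2 weeks. Replicate 1 was the highest of each group, and the NI libraries held 6.91 to 8.75 CPM. Cspg4 alone made up most of the sum at 2 weeks, so its rise is mainly that of 1 gene. The part of such cells in the Pdgfa values was not tested.

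Vegfa (mm10 chr17:46016993-46032369, minus strand) encodes the main growth factor of blood vessels. Its level was 2.80, 2.57 and 2.11 CPM in NI and 1.22, 1.41 and 1.03 CPM at HS 72 h, where all libraries were below NI. At FT 72 h it was 3.37, 3.21 and 1.16 CPM, so that 1 FT library matched HS and the others did not. At 1 week Vegfa was 3.13 and 3.13 CPM after HS and 2.45, 1.39 and 1.34 CPM after FT, and these ranges did not overlap. At 2 weeks it was 1.72, 3.63 and 3.50 CPM after HS and 1.59, 3.92 and 5.65 CPM after FT, and replicate 1 was the lowest of each group. The largest change from NI was -0.80 at HS 72 h (SE 0.37, adjusted p = 0.116). With 1 common total per library that change was called, but not under any other alternative. The FT minus HS difference was 0.75 at 72 h (95% confidence interval -0.03 to 1.52) and -0.74 at 1 week (-1.61 to 0.13), intervals that both included 0.

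Of the 12 other VEGF and angiopoietin genes measured, 1 rose at HS 72 h, HS 1 week and FT 72 h, 2 at HS 2 weeks and FT 1 week and 3 at FT 2 weeks, and 1 fell, at HS 72 h. Over all genes, 1.70% (HS 1 week) to 9.08% (HS 72 h) rose in these comparisons, and 4.31% fell at HS 72 h. Nrp1, a co-receptor of VEGF-A and semaphorins, rose in all 6 comparisons, from 215 ± 49.6 CPM in NI to group means between 430 and 529 CPM (log2 changes of 1.02 to 1.31). Nrp2 rose to 46.2 ± 2.42 CPM at FT 1 week and 48.6 ± 7.04 CPM at FT 2 weeks from 22.6 ± 3.41 CPM in NI. Flt1, a high-affinity VEGF-A receptor, rose at 2 weeks only among the times tested, with 8.01 ± 1.15 CPM in NI against 22.6 ± 5.79 CPM (HS) and 20.1 ± 1.51 CPM (FT) (log2 changes of 1.42, adjusted p = 0.00168, and 1.28, adjusted p = 0.00265). Kdr, the main signalling receptor, was between 6.30 and 9.09 CPM in every group mean and was not called. Angpt1, a ligand that stabilizes vessels, fell at HS 72 h from 2.20 to 0.78 CPM (-1.08, adjusted p = 0.00862). Endothelial markers summed to 22.4 to 90.2 CPM over all libraries, with none of the 8 at 0.

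Of the 16 hypoxia response genes measured, 4 rose at HS 72 h, 1 at HS 1 week, 4 at HS 2 weeks, 4 at FT 72 h, 3 at FT 1 week and 5 at FT 2 weeks, and none passed the test as lower. In the same order, 9.08%, 1.70%, 2.43%, 8.14%, 2.86% and 3.53% of all genes rose. The median change of the list was 0.10 at HS 72 h and 0.16 at FT 72 h, against -0.11 and -0.09 over all genes. Pgk1, a glycolytic enzyme, went from 83.2 ± 11.2 CPM in NI to 365 ± 64.1 CPM at HS 72 h and 340 ± 32.7 CPM at FT 72 h (log2 changes of 2.12 and 2.03). Ldha, which makes lactate, went from 233 ± 5.33 CPM to 829 ± 132 CPM and 756 ± 22.4 CPM. Hif1a, the oxygen-regulated subunit of the factor itself, was 50.7 ± 4.59 CPM in NI and 101 to 144 CPM in the group means after injury, and was called in 5 of 6 comparisons. Other genes of the list lay below NI without being DE. Adm, the vasodilator adrenomedullin, was 2.41 ± 0.57 CPM in NI and 0.95 ± 0.21 CPM at HS 72 h (-0.99, adjusted p = 0.0239, under the 2-fold limit), with no overlap between the libraries, and P4ha1, a collagen prolyl hydroxylase, was 309 ± 14.6 CPM in NI and 220 ± 52.2 CPM at HS 72 h (-0.52, adjusted p = 0.0793). Vegfa was not called by limma in any of these groups. The proliferation genes moved at 72 h too, and their part in the glycolytic values was not tested.

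Hbegf encodes heparin-binding EGF-like growth factor. Its level was 19.7, 14.3 and 15.3 CPM in NI. At 72 h it was 3.34, 8.48 and 6.36 CPM after HS and 7.74, 8.18 and 5.70 CPM after FT, all below NI, with changes of -1.44 (SE 0.57, adjusted p = 0.0638) and -1.14 (SE 0.57, adjusted p = 0.152) that did not pass the test by limma. The HS 72 h change was called by edgeR's likelihood ratio test (-1.45, adjusted p = 0.0469). At 1 week it was 13.2 and 14.1 CPM after HS, just under NI. At FT 1 week it was 14.6 CPM in replicate 1 and 2.01 and 1.97 CPM in replicates 2 and 3, a 7.41-fold spread within 1 group, and replicate 1 lay within the NI range. The change was -1.88 (SE 0.57, limma adjusted p = 0.0472), which is DE. At 2 weeks Hbegf was 12.6, 17.1 and 21.1 CPM after HS and 3.93, 19.2 and 23.6 CPM after FT, and FT replicate 1 was 6.003-fold below replicate 3.

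The Hbegf call at FT 1 week was fragile. It was not DE with 1 in place of 0.5 added before the logarithm (adjusted p = 0.0507), with only the samples of the compared groups in the fit (0.101), by edgeR's quasi-likelihood test (-1.40, 0.167), by edgeR's likelihood ratio test (0.127), by DESeq2 (0.217), without any one of the NI libraries (0.109 to 0.143), or without FT 1 week replicate 2 (0.220) or 3 (0.272). Without FT 1 week replicate 1 the change was -2.75 (adjusted p = 0.000784). That library differed from its group, so leaving it out narrows the spread by construction. The direct difference between FT and HS at 1 week was -1.64 (95% confidence interval -2.96 to -0.32, unadjusted p = 0.0173, limma adjusted p = 0.999), which is not DE.

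**Figure D3:**
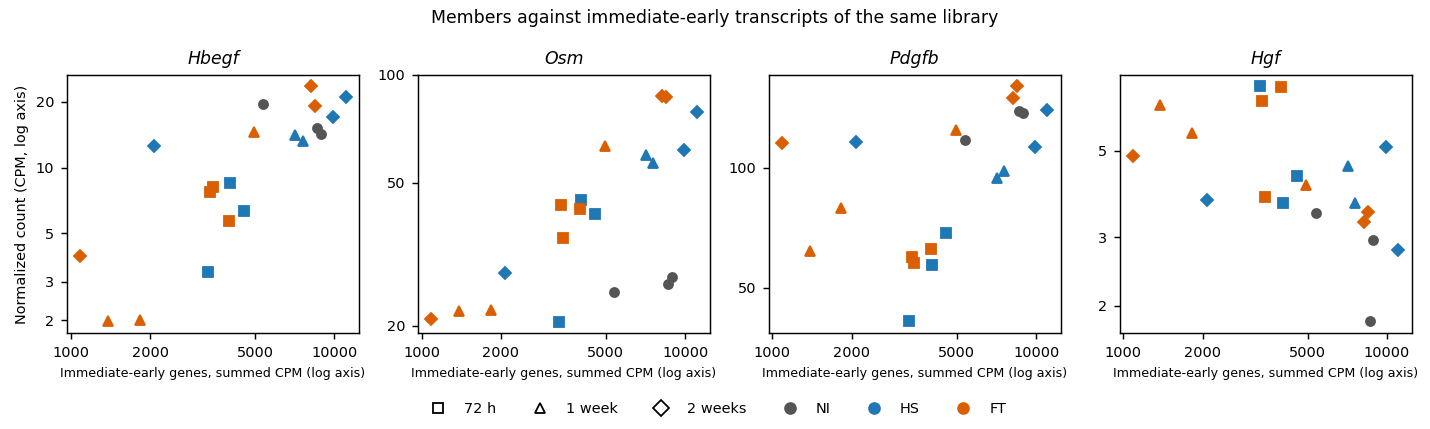
CPM of Hbegf, Osm, Pdgfb and Hgf (vertical log axis) against the summed CPM of 11 immediate-early genes in the same library (horizontal log axis). Each point is 1 of 20 libraries, coloured by NI, HS or FT, with square, triangle and diamond for 72 h, 1 week and 2 weeks and circles for NI. The lowest Hbegf values, 2.01 and 1.97 CPM, are in libraries with sums of 1827 and 1383 CPM.

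The libraries that split for Hbegf also split for the immediate-early genes. At FT 1 week their sum was 4950 CPM in replicate 1 and 1827 and 1383 CPM in replicates 2 and 3. At 2 weeks it was 2072 CPM in HS replicate 1 against 9915 and 11040 CPM in the others, and 1087 CPM in FT replicate 1 against 8476 and 8160 CPM. FT 1 week replicate 1, the library of its group with the highest sum, was also the highest of that group for 7 of the 8 members and the lowest for Hgf. The cords were digested with warm enzymes, trypsin among them, before the cells were sorted and lysed. The part of the immediate-early response, or of this handling, in the members' values was not tested. Of the other EGF receptor system genes, 13 were measured. Adam9, a protease of the family that releases such ligands, rose from 27.6 ± 3.53 CPM in NI to 65.6 ± 3.21 CPM at HS 72 h and 81.6 ± 7.01 CPM at FT 72 h (log2 changes of 1.24 and 1.55). Rhbdf2, which controls ADAM17 traffic, rose at FT 2 weeks (1.12, adjusted p = 0.00275), and the ligand Btc fell at HS 72 h. The receptor Egfr was 1.10 to 2.09 CPM in the group means.

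Osm (mm10 chr11:4236420-4241026, plus strand) encodes oncostatin M, an interleukin-6 family cytokine of myeloid cells. Its level was 24.8, 27.3 and 26.1 CPM in NI, a narrower range than in any injured group of 3 libraries. At 72 h it was 20.5, 44.8 and 41.0 CPM after HS and 43.3, 35.1 and 42.3 CPM after FT. All FT 72 h libraries were above NI, and HS replicate 1 was below it. At 1 week Osm was 56.8 and 59.9 CPM after HS, both above all NI libraries, and 63.2, 22.1 and 22.0 CPM after FT. At 2 weeks it was 28.1, 61.8 and 78.7 CPM after HS and 20.9, 86.5 and 87.1 CPM after FT. FT 1 week replicate 1 was high and HS and FT 2 weeks replicates 1 were low, as for the immediate-early genes. The changes from NI were 1.15 at HS 1 week (SE 0.52, adjusted p = 0.340), 0.97 at HS 2 weeks (SE 0.46, adjusted p = 0.302) and 1.04 at FT 2 weeks (SE 0.46, adjusted p = 0.213), none of which passed the test by limma. At FT 2 weeks edgeR's likelihood ratio test called Osm (1.32, adjusted p = 0.0401). Without FT 2 weeks replicate 1, which was the low library, the limma change was 1.72 (adjusted p = 0.0105). Leaving out the library that differs from its group raises the change and narrows the spread by construction, so this value supports no call.

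Of the 10 other interleukin-6 family genes measured, none rose and 0 to 3 fell in each comparison with NI. Over all genes, 0.482% (HS 1 week) to 4.31% (HS 72 h) fell. Il6ra, the interleukin-6 receptor, fell from 135 ± 23.1 CPM in NI to 37.9 ± 9.37 CPM at HS 72 h, 48.8 ± 4.61 CPM at FT 72 h and 57.3 ± 6.01 CPM at HS 1 week. Clcf1, a ligand of the family, fell at both 72 h groups (-1.09, adjusted p = 0.00323, and -1.32, adjusted p = 0.000748), Il6 at FT 72 h (-1.35, adjusted p = 0.0361) and Lifr at both 2-week groups (-1.01 each, adjusted p = 0.0136 for HS and 0.00866 for FT). The shared subunit Il6st was 104 to 154 CPM in the group means and Osmr 1.52 to 2.43 CPM, and neither was called.

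Hgf (mm10 chr5:16553495-16620152, plus strand) encodes hepatocyte growth factor. It was 3.46, 2.96 and 1.82 CPM in NI, 7.33, 3.67 and 4.31 CPM at HS 72 h and 6.74, 3.80 and 7.30 CPM at FT 72 h. All libraries at 72 h were above all NI libraries. The change was 0.98 at FT 72 h (SE 0.31, limma adjusted p = 0.0245), under the 2-fold limit and so not DE, and 0.77 at HS 72 h (SE 0.31, adjusted p = 0.0677). By edgeR's quasi-likelihood test on recovered reads, whose log2 changes use another small value added, the FT 72 h change was 1.15 (adjusted p = 0.0182), past both limits, as it was by the likelihood ratio test (adjusted p = 0.00919) and DESeq2 (adjusted p = 0.00978). At 1 week Hgf was 3.68 and 4.57 CPM after HS and 4.08, 5.57 and 6.54 CPM after FT, again all above NI (FT 0.87, adjusted p = 0.102). At 2 weeks it was 3.74, 5.13 and 2.78 CPM after HS and 4.87, 3.48 and 3.28 CPM after FT, which overlapped with NI. Of the 10 other HGF system genes measured, 2 rose at each of the 1-week and 2-week groups, where 1.70% (HS 1 week) to 3.53% (FT 2 weeks) of all genes rose. Plau, the urokinase that can activate HGF, rose in all 4 of these groups, from 13.8 ± 2.47 CPM in NI to 61.6 ± 10.8 CPM at FT 2 weeks (2.12, adjusted p = 2.55e-06). St14, an activating protease, rose at both 2-week groups and Hpn, another, at both 1-week groups. Hgfac, the HGF activator, fell at FT 72 h from 0.89 to 0.16 CPM. The receptor Met was 1.66 to 2.70 CPM and not called.

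Bdnf (mm10 chr2:109674700-109727007, plus strand), a neurotrophin, was near the limit of the depth. It was 1.25, 0.77 and 1.44 CPM in NI and 0.63, 0.47 and 0.62 CPM at HS 72 h, the HS 72 h values resting on 19, 5 and 3 reads. At FT 72 h it was 0.62, 0.29 and 0.89 CPM. At 1 week it was 0.95 and 5.65 CPM after HS and 3.34, 0.70 and 0.79 CPM after FT, so that in each group 1 library was far above the other values. At 2 weeks it was 1.25, 0.64 and 0.85 CPM after HS and 0.47, 1.13 and 0.76 CPM after FT. No change from NI passed the test by limma (adjusted p from 0.320 to 0.912). Its receptor Ntrk2 fell from 13.95 ± 5.37 CPM in NI in 4 of 6 comparisons, to 3.31 ± 1.85 CPM at FT 2 weeks (-1.97, adjusted p = 0.00207), and no other neurotrophin gene of the 6 measured was called. Ntrk2 is also a transcript of astrocytes and neurons. The 7 astrocyte markers summed to 383 to 651 CPM in NI and 185 to 244 CPM at FT 2 weeks, where 4 of 7 fell, and the 6 neuronal markers to 33.9 to 57.4 and 11.7 to 25.3 CPM, with none at 0 in any group. Where Ntrk2 also fell, the astrocyte sum overlapped with NI at HS 72 h (290 to 565 CPM) and FT 1 week (292 to 444 CPM). It did not at HS 2 weeks (162 to 302 CPM). In the same order the neuronal sums were 14.6 to 31.8, 17.2 to 19.6 and 9.67 to 29.9 CPM. The part of such cells in the Ntrk2 values was not tested.

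Gdf15 (mm10 chr8:70629393-70632456, minus strand) was 0.48, 0.51 and 0.19 CPM in NI (8, 4 and 2 reads). It was 0.56, 0.66 and 0.62 CPM at HS 72 h and 2.00, 0.29 and 1.25 CPM at FT 72 h. At 1 week it was 2.31 and 1.20 CPM after HS and 4.74, 1.55 and 0.08 CPM after FT, the last being 1 read. At 2 weeks it was 1.25, 0.86 and 0.72 CPM after HS and 1.68, 1.39 and 1.37 CPM after FT. The libraries of HS 72 h, HS 1 week, HS 2 weeks and FT 2 weeks were above the NI libraries. FT 72 h and FT 1 week overlapped with NI. At HS 72 h the margin was 0.56 against 0.51 CPM, and replicate 3 held 3 reads. No change passed the test by limma, the largest being 1.31 at HS 1 week (SE 0.58, adjusted p = 0.324). At FT 1 week DESeq2 (2.42, adjusted p = 0.0183) and edgeR's likelihood ratio test (2.40, adjusted p = 0.0232) called Gdf15 higher, in the group whose libraries held 4.74, 1.55 and 0.08 CPM. Of the 12 other stress response genes measured, Asns, which makes asparagine, rose in 5 of 6 comparisons (from 4.61 ± 1.22 CPM in NI to 16.2 ± 2.73 CPM at FT 2 weeks) and Trib3, a pseudokinase, in 4. Ddit4, an inhibitor of growth signalling, fell in 4 and Ddit3, a stress transcription factor, at both 72 h groups (-1.58, adjusted p = 0.0183, and -1.67, adjusted p = 0.0143). Atf3 fell at FT 1 week (-2.17, adjusted p = 0.0441) and is also 1 of the 11 immediate-early genes.

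**Figure D4:**
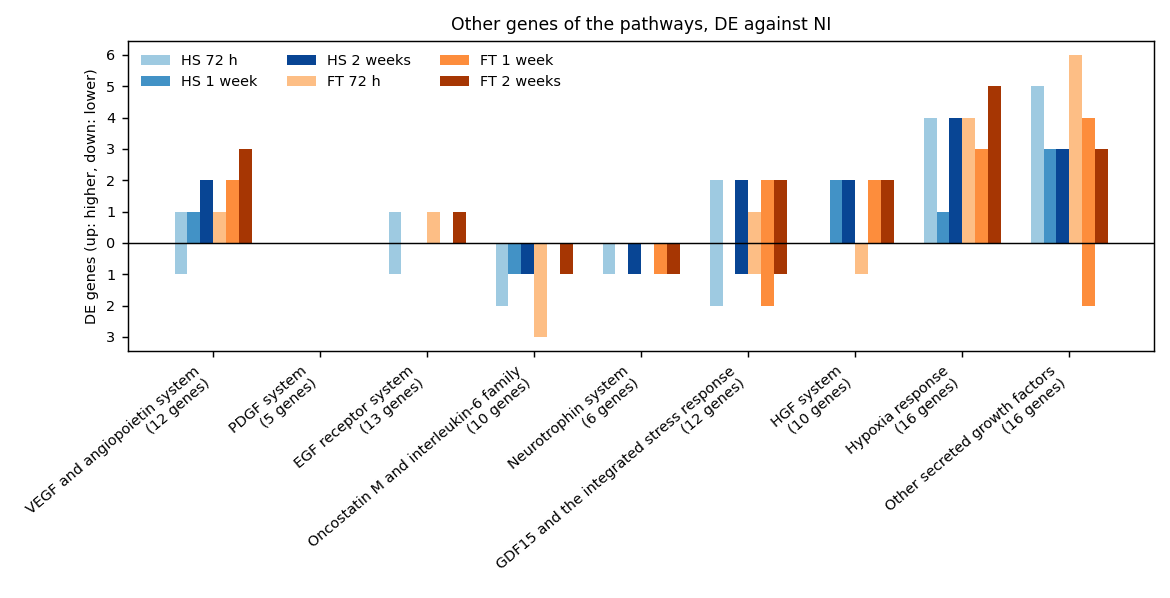
Number of DE genes against NI (vertical axis, higher above 0 and lower below 0) in each of the 9 pathway lists (horizontal axis, with the number of genes measured) for the 6 injured groups. The PDGF system has none, the hypoxia list has DE genes only above 0, and the interleukin-6 list only below 0.

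Among 16 other secreted growth factors measured, 3 rose in all 6 comparisons with NI. Igf1, insulin-like growth factor 1, rose from 7.62 ± 1.60 CPM in NI to group means of 93.2 to 207 CPM, Grn, progranulin, from 1639 ± 110 CPM to 3484 to 5305 CPM, and Csf1, the growth factor of microglia themselves, from 39.2 ± 9.35 CPM to 91.1 to 171 CPM. Angptl2 and Angptl4, angiopoietin-like proteins, rose at both 72 h groups, Angptl4 also at FT 1 week, and Inhba at FT 72 h. Cyr61 and Ptn fell at FT 1 week (adjusted p = 0.0357 and 0.0457). Over the 9 lists, 100 of 109 genes were in the table, of which 20, 8 and 16 were DE at 72 h, 1 week and 2 weeks after HS, and 18, 18 and 19 after FT. In the same order, 13.4%, 2.18% and 3.23% of all genes were DE after HS and 12.2%, 4.05% and 4.88% after FT. The lists were chosen with earlier results of these data known, and the difference was not tested.

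Counts of members are given here beside the share over all genes, and whether the 2 differ was not tested. At HS 72 h 1 of 8 was DE (Pdgfb) beside 13.4% of all genes, and at FT 72 h 1 of 8 (Pdgfb) beside 12.2%. At 1 week 0 of 8 were DE after HS (2.18% of all genes) and 1 of 8 after FT (Hbegf, 4.05%). At 2 weeks 0 of 8 were DE after HS (3.23%) and 1 of 8 after FT (Pdgfa, 4.88%). At an unadjusted p under 0.05, 2 members passed at HS 1 week (Osm and Gdf15, both higher) and 2 at HS 2 weeks (Pdgfa and Osm, both higher), beside 12.8% and 16.1% of all genes. Ranges that did not overlap with NI were found for 7 of 8 members at HS 72 h, beside 49.0% of all genes, for 6 of 8 at HS 1 week (37.3%), for 3 of 8 at HS 2 weeks (24.8%), for 4 of 8 at FT 72 h (44.9%), for 1 of 8 at FT 1 week (21.5%) and for 2 of 8 at FT 2 weeks (30.7%). The median change of the members was -0.52, 0.41 and 0.29 at 72 h, 1 week and 2 weeks after HS, against -0.11, 0.02 and -0.01 over all genes. After FT it was -0.03, 0.21 and 0.41, against -0.09, -0.03 and -0.02. With 1 common total per library the HS medians of the members became -0.92, 0.24 and 0.02 (all genes -0.52, -0.17 and -0.29). The FT medians became -0.45, -0.07 and 0.07 (all genes -0.48, -0.32 and -0.36), and the sign at FT 1 week turned. The 6 comparisons with NI share the same 3 NI libraries.

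Between the lesions, no member was DE at 72 h, 1 week or 2 weeks, and neither was any of the 16810 genes (0.0%) by limma. At an unadjusted p under 0.05, 505 genes (3.00%) passed at 72 h, 724 (4.31%) at 1 week and 438 (2.61%) at 2 weeks, among them 0, 1 (Hbegf) and 0 members. The ranges of HS and FT did not overlap for 0 members at 72 h (7.54% of all genes), 1 at 1 week (Vegfa, 15.0%) and 2 at 2 weeks (Pdgfa and Gdf15, 8.15%). EdgeR's quasi-likelihood test also called 0 genes at each time, its likelihood ratio test 0, 8 and 1 genes and DESeq2 0, 7 and 1 genes at 72 h, 1 week and 2 weeks, with 0 members among them. Over time within a lesion, Pdgfa and Pdgfb were the 2 of 8 members DE between 72 h and 2 weeks, after HS (beside 4.74% of all genes) and after FT (3.81%). Between 72 h and 1 week 0 of 8 were DE by limma after HS (6.03%) and after FT (3.44%), with 4 (Vegfa, Pdgfa, Pdgfb and Bdnf) and 1 (Pdgfb) at an unadjusted p under 0.05, beside 26.8% and 19.9% of all genes. Pdgfb after HS was 0.81 higher (adjusted p = 0.0379), under the 2-fold limit. Bdnf after HS was called by both edgeR tests and DESeq2 (2.51 to 2.52) and not by limma (1.48, adjusted p = 0.0630), and without HS 1 week replicate 2, which held 47 reads, its change was 0.44 (adjusted p = 0.717).

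Over the 20 libraries, the genes whose log2 levels ran most like a member were found among 15475 genes with a mean of at least 1 CPM in 1 group. For Hbegf they were Hsp90aa1 (Pearson r = 0.93), Tob1 (0.93) and Arl4d (0.91), for Osm Il1b (0.93), Dusp2 (0.92) and Ier3 (0.92), for Pdgfb Lemd2 (0.94), Tbc1d10a (0.93) and Zranb1 (0.93), and for Pdgfa Slc15a3 (0.92), Igsf8 (0.89) and Tmem163 (0.88). Vegfa ran most like Gadd45a (0.83), Hgf like Cltc (0.84), Gdf15 like Sash1 (0.78) and Bdnf like the pseudogene Mageb16-ps1 (0.92). These values describe libraries that share groups and immediate-early levels and carry no test.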

How the data were processed

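Polyadenylated RNA of sorted eGFP-high cells was amplified and sequenced by the authors, who aligned the reads to mm10 with TopHat2 2.0.9, counted them per gene with HTSeq 0.5.4p3 and kept genes with at least 10 counts in at least 2 replicates. Strandedness and sequencing batches were not given in the sources used here. The deposited signal values are normalized CPM, each count divided by a library size scaled by edgeR 3.3.6. The columns summed to 777426 to 830481 CPM for NI libraries, and for injured ones to 878070 to 1202186 CPM. Whole reads were recovered for 336200 of 336200 values (100% within 0.001 of a read).

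Changes were fitted with limma 3.58.1 on log2(CPM + 0.5) with an intensity trend, all 20 libraries and 1 mean per group, and p-values were adjusted by Benjamini-Hochberg. The fit was tested on simulated data. Alternatives are given in the closing section, with edgeR 4.0.16 and DESeq2 1.42.0 on the recovered reads. All members and their receptors were named, and from each pathway list genes that were DE. The members, the lists and the tests were chosen with earlier results of these data known. Start windows came from RefSeq (GRCm38.p6).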

Additional observations from a re-analysis of the deposited data

How the results depend on the processing

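The results were recomputed under 12 planned kinds of alternative and 1 added later, and no change of a member that was DE turned its direction. The fall of Pdgfb at 72 h after HS and FT and its rise from 72 h to 2 weeks after FT were DE in all of them. In the order HS 72 h, HS 1 week, HS 2 weeks, FT 72 h, FT 1 week and FT 2 weeks against NI, limma called 1, 0, 0, 1, 1 and 1 members. At FT 72 h the count became 2, with Hgf or Hbegf beside Pdgfb, with 0.1 added, without the fold limit, with 1 common total, with a fit on the 2 groups alone, and by edgeR's quasi-likelihood test, its likelihood ratio test and DESeq2. At FT 1 week it became 0 with 1 added, with only the groups compared, by edgeR's quasi-likelihood test and with the replicate number as a block. With 1 common total it became 3 at HS 72 h and 0 at FT 2 weeks, and the median of all genes moved from -0.11 to -0.52 at HS 72 h and from -0.02 to -0.36 at FT 2 weeks. By the likelihood ratio test it became 2 at HS 72 h (with Hbegf) and at FT 2 weeks (with Osm). At FT 1 week the likelihood ratio test and DESeq2 each called 1 member, Gdf15 and not Hbegf. With only the groups compared it became 2 at HS 72 h, HS 1 week and FT 2 weeks, and the pathway genes called at HS 1 week rose from 8 to 13. Between HS 72 h and HS 1 week it went from 0 to 2 with 1 common total or only the groups compared, and to 1 by both edgeR tests, by DESeq2 and without the fold limit. Causes of these shifts were not tested.

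Leaving out 1 library at a time gave 0 to 2 members at FT 1 week and FT 2 weeks, 1 to 2 at FT 72 h, 0 to 1 between HS 72 h and HS 1 week, 0 to 2 between HS 72 h and HS 2 weeks and 1 to 2 between FT 72 h and FT 2 weeks. It gave 4 to 9 pathway genes at HS 1 week and 9 to 17 at FT 1 week, the 9 without NI replicate 2 or FT 1 week replicate 2. A lone HS 1 week library is assumed to vary like the other groups.

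FT 1 week replicate 1, HS 2 weeks replicate 1 and FT 2 weeks replicate 1 were also left out together. They were picked after the Hbegf and Osm values had been seen, and removing libraries that differ from their group narrows the spread by construction, so the result supports no call. The member counts against NI became 2, 1, 1, 2, 2 and 2, that between FT and HS at 1 week 2, and those over time 3 and 5 (HS 72 h to 1 and 2 weeks) and 1 and 4 (FT 72 h to 1 and 2 weeks).

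Samples with the same replicate number did not deviate together (median r of their deviations from group means -0.0017 over 57 pairs, against -0.0066 over 114 other pairs), so the number was taken not to pair them. The replicate block took the adjusted p of Hbegf at FT 1 week to 0.0642 and changed no other member count. Depth limits Bdnf and Gdf15, which held as few as 1 read in a library.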
